A study of Mus musculus with 2 samples.

Results

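The genes described here are 6 genes by which brain microglia are commonly told apart from other macrophages: Tmem119, Siglech, Selplg and Slc2a5, which encode proteins of the cell surface, and Sparc and Olfml3, which encode secreted proteins. They were taken by name, 6 of the 31053 genes listed in the deposited matrices and 6 of the 18155 with at least 1 unique molecular identifier (UMI, the tag that counts 1 captured RNA molecule) in the cells used. Both samples were microglia sorted from the hypothalamus of young wild-type mice, pooled from several animals, 20 hours after injection of plasma protein coupled to a dye. One group was plasma-negative microglia, without the dye, and the other was plasma-positive microglia, with it. Each group was 1 droplet library, so no difference has a replicate check, no test was run, and every interval covers counting error only. Within each library, cells with at least 5 UMIs of Apoe, which encodes the lipid carrier apolipoprotein E, were set beside cells with 0.

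Microglia are the resident macrophages of the brain parenchyma, and in the healthy brain they hold a set of transcripts that peripheral macrophages mostly lack. That set depends on signals from the brain, TGF-beta among them, and much of it declines when microglia take on activated or disease-associated states in which Apoe is induced. The genes of the set are used as microglial labels, which makes their stability across cell states a practical matter as well as a biological one.

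After filtering, 9860 plasma-negative cells with 34534518 UMIs were left, beside 10362 plasma-positive cells with 41984977. Median depth was 3270.5 and 3753 UMIs per cell, and the median share of mitochondrial UMIs was 1.08% and 1.27%. Of 10 other microglia markers, at least 4 were seen in 9852 plasma-negative and 10353 plasma-positive cells. Markers of other lineages were summed as well, since some of those express 1 or more of the 6 genes. The 8 endothelial markers summed to 28.0 and 25.3 CPM (counts per 1000000 UMIs of the cells summed), with Emcn at 0 UMIs in both. The 8 mural and fibroblast markers summed to 0.174 and 0.238 CPM, with Col1a1, Col1a2 and Col3a1 at 0 in both, and the 8 astrocyte and tanycyte markers to 1.62 and 2.19 CPM. The plasmacytoid dendritic cell list, of interest because those cells express Siglech, had Ly6d and Klk1 at 0 in both but summed to 1158 and 1173 CPM, of which Irf8, which microglia also express, made up 527 and 517 CPM. At least 4 of its 8 markers were in 252 plasma-negative and 359 plasma-positive cells, and the part of these cells in the Siglech level was not tested. Monocyte and neutrophil markers summed to 3.82 and 3.74 CPM, with S100a8, S100a9, Ly6c2 and Retnlg at 0, oligodendrocyte markers to 60.1 and 61.8 CPM and neuronal markers to 2.58 and 5.10 CPM. The 8 T and NK cell markers summed to 96.7 and 94.0 CPM, nearly all from Il7r, with Cd3e, Cd3g, Trac and Nkg7 at 0.

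All 6 genes are annotated as protein-coding, and none overlaps another annotated gene (GRCm38, GENCODE M21, which may differ from the annotation behind the counts). Tmem119 lies on chromosome 5 from 113793729 to 113800516 (minus strand) and Selplg on the same strand of chromosome 5 from 113818536 to 113832644. They are neighbours: 18019 bases separate them, with 0 protein-coding genes and 1 processed pseudogene, Gm19931, in between. Siglech lies on chromosome 7 from 55768178 to 55778925 (plus strand), Sparc on chromosome 11 from 55394500 to 55423183 (minus strand), Olfml3 on chromosome 3 from 103722222 to 103738001 (minus strand) and Slc2a5 on chromosome 4 from 150119283 to 150144169 (plus strand).

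The 250 bases upstream of the RefSeq start (GRCm38.p6) were at hand for 4 of the 6 genes, without Tmem119 and Selplg. They are shown because these 4 genes spanned the range of the Apoe difference described below, from Slc2a5, the most reduced, to Sparc and Olfml3, the least. Capitals mark each CG dinucleotide. The windows are chr4:150119094-150119343 (plus) for Slc2a5, chr7:55767934-55768183 (plus) for Siglech, chr11:55420081-55420330 (minus) for Sparc and chr3:103738002-103738251 (minus) for Olfml3. The Sparc window lies inside the longer GENCODE span of that gene. The ends of the Slc2a5 and Siglech windows also run past the GENCODE starts of those genes, at 150119283 and 55768178.
Slc2a5: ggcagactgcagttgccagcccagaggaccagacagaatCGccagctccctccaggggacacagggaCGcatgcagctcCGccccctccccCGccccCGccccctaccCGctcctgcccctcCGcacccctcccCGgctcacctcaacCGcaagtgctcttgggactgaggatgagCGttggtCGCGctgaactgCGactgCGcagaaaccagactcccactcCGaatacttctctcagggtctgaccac
Siglech: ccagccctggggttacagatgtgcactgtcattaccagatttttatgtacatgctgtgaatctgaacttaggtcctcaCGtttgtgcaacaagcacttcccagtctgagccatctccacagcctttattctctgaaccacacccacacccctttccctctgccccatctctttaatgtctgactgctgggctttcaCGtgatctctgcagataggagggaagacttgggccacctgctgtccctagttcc
Sparc: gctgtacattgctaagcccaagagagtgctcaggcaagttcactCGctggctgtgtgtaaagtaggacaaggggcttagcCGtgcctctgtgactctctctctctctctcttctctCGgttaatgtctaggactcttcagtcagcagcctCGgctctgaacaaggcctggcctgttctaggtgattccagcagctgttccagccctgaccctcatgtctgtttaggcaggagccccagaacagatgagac
Olfml3: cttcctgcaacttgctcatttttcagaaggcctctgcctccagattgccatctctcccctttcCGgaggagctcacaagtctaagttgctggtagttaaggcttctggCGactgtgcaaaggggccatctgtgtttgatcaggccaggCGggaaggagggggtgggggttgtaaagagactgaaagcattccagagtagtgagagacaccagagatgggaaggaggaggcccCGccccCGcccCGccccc
The Slc2a5 window held 15 CG dinucleotides at 66.4% G and C, the Siglech window 2 at 50.8%, the Sparc window 4 at 54% and the Olfml3 window 6 at 57.6%. Over all 32851 windows the medians were 6 and 52.4%. The letters GAGGAA, a core that the myeloid factor PU.1 is known to bind, were in none of the 4 windows on either strand, while 23.3% of all windows held them. The core of the interferon-stimulated response element was also in none, against 2.98% of all windows. Both searches describe letters only.

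In the plasma-negative library the level was 2486 CPM (2469 to 2503, 95% Poisson interval) for Selplg, 2435 CPM (2418 to 2451) for Sparc, 1834 CPM (1819 to 1848) for Siglech, 1432 CPM (1420 to 1445) for Olfml3, 1273 CPM (1261 to 1285) for Tmem119 and 306 CPM (300.3 to 312) for Slc2a5. In the plasma-positive library it was 2353 CPM (2339 to 2368) for Selplg, 2312 CPM (2297 to 2327) for Sparc, 1793 CPM (1781 to 1806) for Siglech, 1506 CPM (1494 to 1518) for Olfml3, 1193 CPM (1183 to 1204) for Tmem119 and 318 CPM (313 to 324) for Slc2a5. The order of the 6 levels was the same in both libraries, and no neighbours in it had overlapping counting intervals. Molecules are counted once near the 3' end whatever the transcript's length, so these CPM levels carry no length correction, and capture that differs between transcripts is not accounted for. Selplg was the transcript of rank 24 among all genes in the plasma-negative library and of rank 28 in the plasma-positive library, and Slc2a5 was of rank 448 and 426. Together the 6 genes made up 0.977% of plasma-negative and 0.948% of plasma-positive UMIs.

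Across the 2 libraries the levels of the 6 genes were close to equal. Selplg, the PSGL-1 protein that binds selectins, had a log2 ratio (plasma-positive over plasma-negative) of -0.08 (-0.09 to -0.07). Tmem119, a single-pass membrane protein much used as a microglial label, was at -0.09 (-0.11 to -0.07). Sparc, a secreted matricellular protein that binds collagen, was at -0.07 (-0.09 to -0.06). Siglech, a member of the Siglec family of lectins that signals through the adaptor Tyrobp, was at -0.03 (-0.05 to -0.02). The other two lay on the other side of 0, Olfml3, a secreted olfactomedin-domain protein, at 0.07 (0.06 to 0.09) and Slc2a5, the fructose carrier GLUT5, at 0.06 (0.02 to 0.09). All 6 were closer to equal than 1.2-fold, and among the 3540 genes with at least 50 CPM in a library 0.678% were higher and 0.65% were lower by 1.2-fold or more. The median over the 6 was -0.05, against -0.03 over all these genes, whose quartiles were -0.09 and 0.04.

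**Figure D1:**
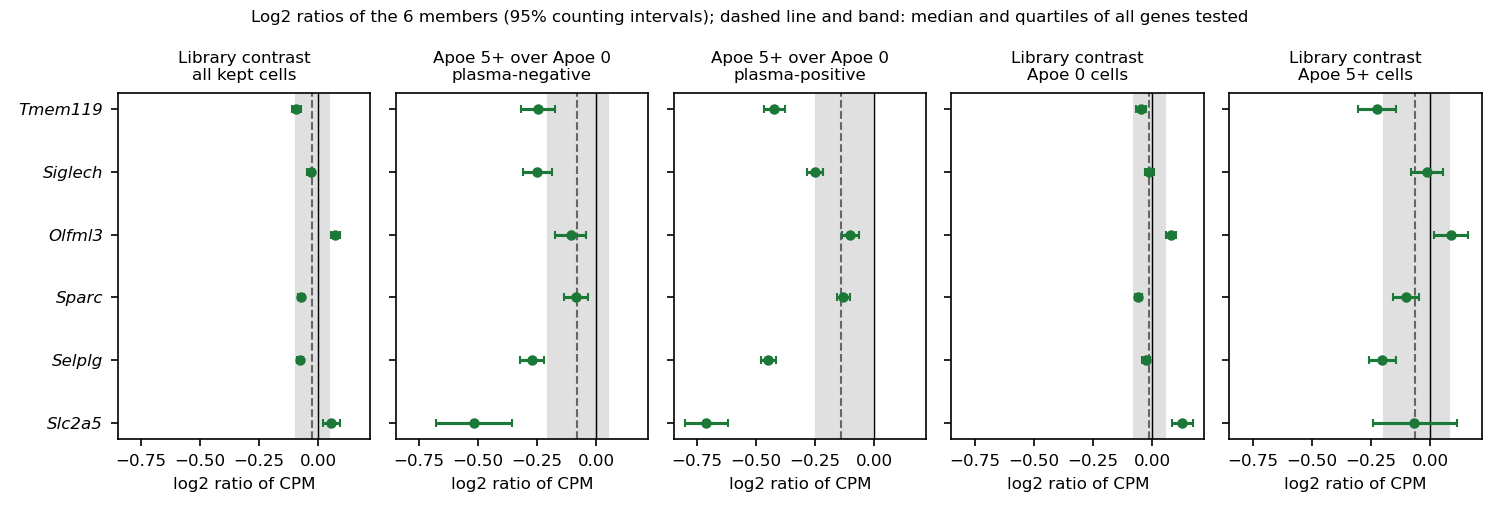
Log2 ratio of CPM (x axis) for each of the 6 genes (y axis) in 5 comparisons, with 95% counting intervals. The dashed line and grey band are the median and quartiles of all genes tested. The library ratios over all cells lie between -0.09 and 0.07, whereas the ratios of Slc2a5 between Apoe classes are -0.51 and -0.71.

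Per UMI, cells with at least 5 Apoe UMIs held less of all 6 transcripts than cells with 0 in both libraries, except that Olfml3 and Sparc lay at or just above 0 among plasma-positive cells once ratios were centred on the median gene. Slc2a5 differed most, Selplg came next, and Sparc and Olfml3 differed least. Tmem119 and Siglech lay in between, nearly equal in the plasma-negative library and with the larger difference for Tmem119 in the plasma-positive library. The plasma-negative library had 316 cells with at least 5 Apoe UMIs and 8349 with 0, and the plasma-positive library had 1012 and 6736. The Apoe classes differed in other properties too. They were cut on raw Apoe UMIs, which a deeper cell reaches more readily, so depth is tied to the class by its definition. Median depth was 4203 against 3199 UMIs per cell in the plasma-negative library and 4551 against 3564.5 in the plasma-positive library. The median mitochondrial share was 1.45% against 1.05%, and 1.68% against 1.21%, and the share of UMIs on ribosomal protein genes was 11.2% against 8.80%, and 13.1% against 9.47%. Interferon-list transcripts summed to 462 against 385 CPM among plasma-negative and to 1724 against 539 CPM among plasma-positive cells, and dissociation-list transcripts to 1151 against 1379 and to 1131 against 1301 CPM. The 8 border macrophage markers summed to 4.60 against 3.62 CPM among plasma-negative and to 26.0 against 3.28 CPM among plasma-positive cells, with Lyve1 at 0 in both libraries, and 1 plasma-positive cell had 4 or more of them. The part of the ribosomal share and of these markers in the results was not tested.

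Slc2a5 was at 314 CPM (308 to 321) in Apoe 0 cells and 219.9 CPM (197 to 245) in Apoe 5 or more cells of the plasma-negative library, from 8773 and 335 UMIs. Among plasma-positive cells it was at 343 CPM (336 to 351) and 210.1 CPM (198 to 223), from 8579 and 1129 UMIs. The counting intervals of the Apoe classes did not overlap in either library. The log2 ratio, Apoe 5 or more over Apoe 0, was -0.51 (-0.68 to -0.36) and -0.71 (-0.80 to -0.62). In that comparison 1.42% of the 3590 genes tested had a lower ratio in the plasma-negative library, and 0.343% of 3497 in the plasma-positive library.

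For Selplg, plasma-negative cells without Apoe had 2516 CPM (2498 to 2535) and those with at least 5 Apoe UMIs had 2085 CPM (2014 to 2159), a log2 ratio of -0.27 (-0.32 to -0.22). The plasma-positive values were 2473 CPM (2453 to 2492) and 1814 CPM (1778 to 1851), a ratio of -0.45 (-0.48 to -0.42). Tmem119, its neighbour on chromosome 5, had 1293 CPM (1279 to 1306) and 1091 CPM (1039 to 1145) in plasma-negative cells, a ratio of -0.24 (-0.32 to -0.17). Its plasma-positive values were 1252 CPM (1238 to 1266) and 934 CPM (909 to 960), a ratio of -0.42 (-0.47 to -0.38). For both genes the Apoe classes were apart by more than the counting intervals in each library, and the larger difference was in the plasma-positive one. The difference between the libraries was not tested.

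Siglech had 1845 CPM (1829 to 1861) without Apoe and 1553 CPM (1491 to 1617) with it in plasma-negative cells, and 1831 CPM (1814 to 1848) and 1539 CPM (1506 to 1572) in plasma-positive cells. Its log2 ratios of -0.25 and -0.25 were nearly the same in both. Sparc was at 2439 and 2299 CPM, and at 2344 and 2142 CPM, with ratios of -0.09 (-0.13 to -0.04) and -0.13 (-0.16 to -0.10). Olfml3 was at 1444 and 1340 CPM, and at 1528 and 1425 CPM, with ratios of -0.11 (-0.17 to -0.04) and -0.10 (-0.14 to -0.06). The 2 secreted proteins thus lay near the middle of all genes, with 49.3% and 45.0% of genes at a lower ratio in the plasma-negative and 53.1% and 59.6% in the plasma-positive library, for Sparc and Olfml3.

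**Figure D2:**
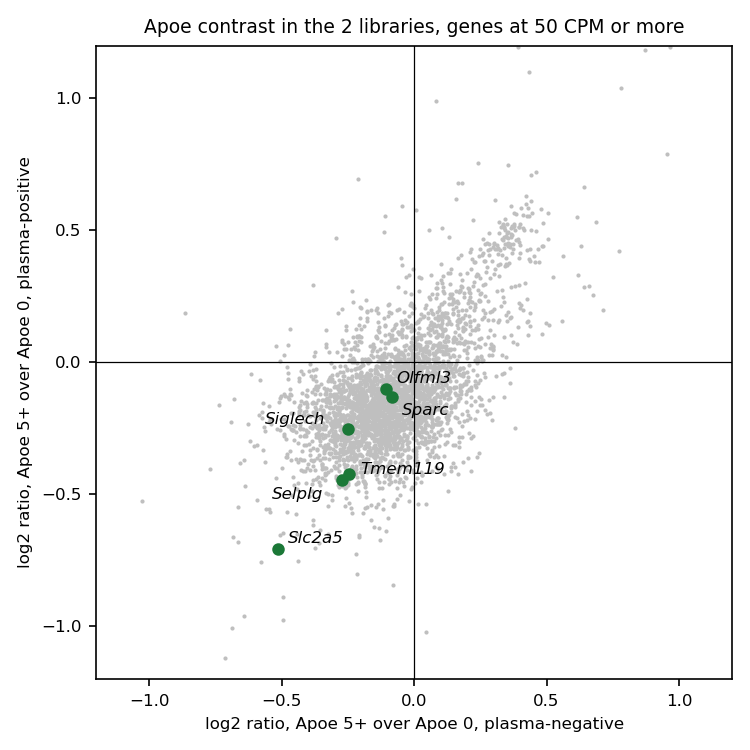
Log2 ratio of CPM, Apoe 5 or more over Apoe 0, in the plasma-negative (x axis) and the plasma-positive library (y axis), for genes at 50 CPM or more in both comparisons (grey, 3416 of 3424 genes, the others lying beyond 1.2) and the 6 genes (green, labelled). Slc2a5 lies at the lower left edge, Selplg and Tmem119 lie together, and Sparc and Olfml3 lie inside the main cloud.

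At 1.2-fold or more, 2 of the 6 were lower in Apoe 5 or more cells of the plasma-negative library (Selplg and Slc2a5), where 16% of all genes tested were lower by that much. Among plasma-positive cells 3 of 6 were (with Tmem119), against 22.1% of genes. At that fold 0 of the 6 were higher, against 6.35% and 7.21% of genes. Siglech and Tmem119, at -0.25 and -0.24, lay just short of 1.2-fold in the plasma-negative library, and the count there moved between 0 and 4 with the settings tried. The median of the 6 was -0.25 and -0.34, and that of all genes was -0.08 and -0.14. Relative to that median the 6 were at -0.16 and -0.19, and Olfml3 and Sparc then lay slightly above 0 in the plasma-positive library, at 0.04 and 0.01.

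Depth, mitochondrial share and interferon transcripts moved with the Apoe classes, and the comparison was therefore repeated with each in turn. With Apoe 0 cells weighted to the depth of the Apoe 5 or more cells, the median of the 6 was -0.27 in the plasma-negative and -0.35 in the plasma-positive library. Weighting by mitochondrial share gave -0.25 and -0.33. Leaving out cells with at least 3 interferon-list UMIs after thinning to 1000 UMIs gave -0.24 and -0.28, with Slc2a5 at -0.54 and -0.63. Counted per cell and not per UMI, the order differed. Apoe 5 or more cells, which were deeper, held 10.1 Selplg UMIs each against 8.41 in Apoe 0 cells of the plasma-negative library, and 9.63 against 9.17 in the plasma-positive library. For Slc2a5 the means were 1.06 against 1.05 UMIs per cell, and 1.12 against 1.27. All 6 genes had as many or more UMIs per cell in the Apoe 5 or more class of both libraries, except Slc2a5 in plasma-positive cells.

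**Figure D3:**
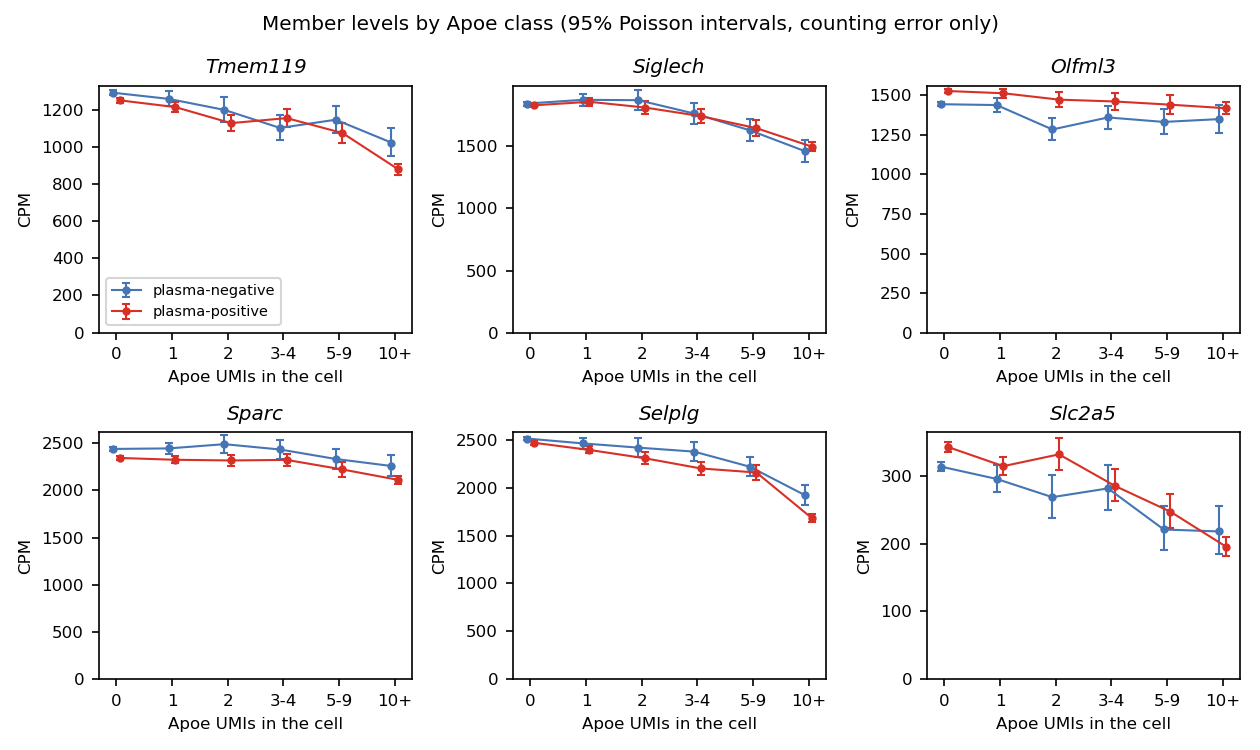
CPM of each gene (y axis, from 0) in cells grouped by their number of Apoe UMIs (x axis), with 95% Poisson intervals, for the plasma-negative (blue) and plasma-positive (red) library. Slc2a5 lies at 314 and 343 CPM in cells without Apoe UMIs and at 218 and 196 CPM in cells with 10 or more, whereas Sparc is at 2111 CPM or more in every class.

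Finer Apoe classes gave the same picture without an even slope. Slc2a5 in the plasma-positive library was at 343 CPM with 0 Apoe UMIs, 315 with 1, 332 with 2, 286 with 3 to 4, 248 with 5 to 9 and 196 (182 to 210.2) with 10 or more. In the plasma-negative library the values were 314, 296, 269, 282, 221.2 and 218 (185 to 256) CPM. Tmem119 in the plasma-positive library was at 1252, 1215, 1129, 1156, 1075 and 880.2 (851 to 910.2) CPM over the same classes. The lowest value of both genes was in the class with most Apoe, and in between neighbouring classes often had overlapping intervals. Between 0 and 1 Apoe UMIs, plasma-positive cells differed beyond the counting intervals for Slc2a5, at 343 CPM (336 to 351) and 315 CPM (302 to 328), and for Selplg, at 2473 CPM (2453 to 2492) and 2397 CPM (2362 to 2433). The intervals of Tmem119 overlapped there. In the plasma-negative library those of Slc2a5 overlapped, at 308 to 321 and 277 to 316 CPM. So did those of Selplg, at 2498 to 2535 and 2411 to 2522 CPM. Only 8 plasma-negative and 9 plasma-positive cells had fewer than 4 microglia markers. No other cell type was thus at hand to measure the background of free RNA, and its part in the levels was not tested.

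At the same Apoe class the libraries were again close for Apoe 0 cells, and less so for Apoe 5 or more cells. Among Apoe 0 cells the log2 ratio, plasma-positive over plasma-negative, ran from -0.06 for Sparc to 0.13 (0.09 to 0.17) for Slc2a5, with a median of -0.02 over the 6 and of -0.01 over all genes. By 1.2-fold 0 of the 6 differed, beside 0.281% of genes higher and 0.506% lower. Among Apoe 5 or more cells it ran from -0.22 (-0.30 to -0.14) for Tmem119 and -0.20 (-0.26 to -0.14) for Selplg to 0.09 (0.02 to 0.16) for Olfml3. The Apoe 5 or more class is not the same in both libraries. Apoe was at 2621 CPM in it in the plasma-negative and at 8535 CPM in the plasma-positive library, and the part of this in the ratios was not tested. By 1.2-fold 6.67% of genes were higher and 15.1% lower in this comparison, and 0 of the 6 were in the main setting. Slc2a5 was at -0.07 (-0.24 to 0.11) there. Over the settings tried, the lowest ratios were -0.50 for Slc2a5, -0.27 for Tmem119 and -0.27 for Selplg, each past 1.2-fold. After thinning to 1000 UMIs, plasma-positive cells of this class held 0.171 Slc2a5 UMIs on average, against 0.242 in plasma-negative cells. The median of the 6 ratios was -0.08, beside -0.06 over all genes, whose quartiles were -0.19 and 0.08. With each cell thinned to 1000 UMIs the median of the 6 was -0.23, and that of all genes was -0.07.

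Detection in single cells was compared after each cell was thinned to 1000 UMIs, with shallower cells left out. Without Apoe, a Slc2a5 UMI was in 26.1% (25.1% to 27.1%, exact binomial) of the 7603 cells of the plasma-negative library, and 28.3% (27.2% to 29.4%) of the 6254 of the other had one. In Apoe 5 or more cells 20.06% (15.8% to 24.9%) of 314 and 15.4% (13.2% to 17.8%) of 989 did. Selplg was seen in 90.2% and 89.3% of Apoe 0 cells against 84.7% and 75.6% of Apoe 5 or more cells, and Tmem119 in 70.3% and 69.5% against 63.7% and 58.4%. Siglech was seen in 79.3% and 79.1% against 74.2% and 72.6%, Olfml3 in 71.8% and 74.1% against 67.5% and 67.4%, and Sparc in 88.4% and 86.5% against 87.3% and 81.0%. Without thinning the shares for Slc2a5 were 55.9% and 61.8% in Apoe 0 cells against 55.4% and 51.7%, and for Selplg 96.2% and 97.2% against 96.8% and 96.05%. At full depth almost every cell had a Selplg UMI, and the shares of the Apoe classes were close. Those of Slc2a5 were close in the plasma-negative library only. Apoe 5 or more cells were also deeper, and the part of depth in these shares was not tested. Over all thinned cells the Slc2a5 share was 25.5% (n = 9064 plasma-negative) and 26.5% (n = 9759 plasma-positive).

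Few cells lacked the whole set. After thinning, a cell held a UMI of 4.26 of the 6 genes on average (SD over cells 1.03, n = 7603) in Apoe 0 plasma-negative cells and 3.97 (SD 1.21, n = 314) in Apoe 5 or more cells. The plasma-positive means were 4.27 (SD 1.03, n = 6254) and 3.70 (SD 1.25, n = 989). None of the 6 was seen in 6 Apoe 0 and 1 Apoe 5 or more cell of the plasma-negative library, and in 4 (0.0640%, up to 0.164%) and 10 cells (1.01%, 0.486% to 1.85%) of the plasma-positive library. After thinning to 2000 UMIs, 0 of 962 cells of that last class lacked all 6, which allows up to 0.383% (exact binomial). Without thinning the means were 5.20 against 5.37 in the plasma-negative and 5.34 against 5.24 in the plasma-positive library, which turned the plasma-negative difference round.

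**Figure D4:**
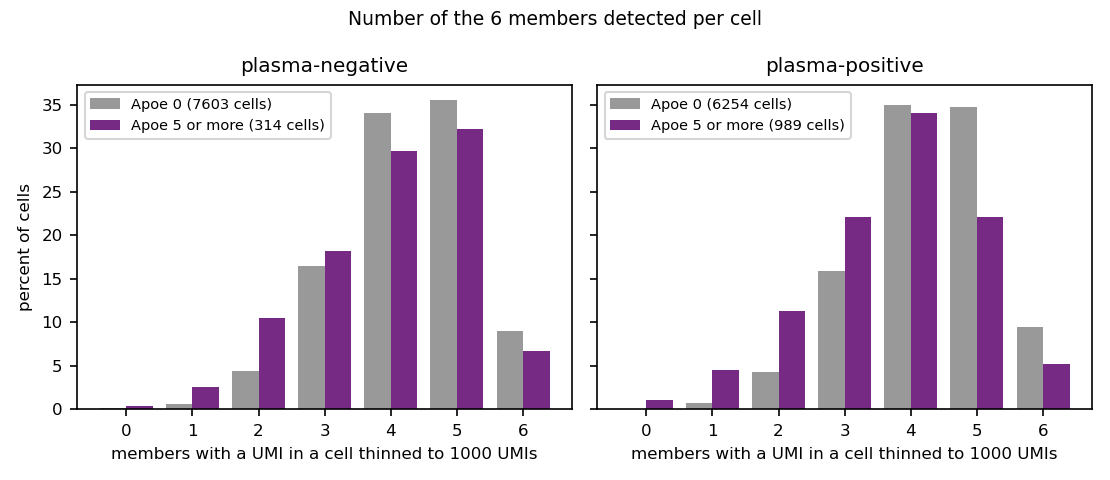
Percent of cells (y axis, from 0) by the number of the 6 genes with a UMI (x axis) after thinning each cell to 1000 UMIs, for Apoe 0 cells (grey) and Apoe 5 or more cells (purple). In the plasma-positive library 5.16% of 989 Apoe 5 or more cells held all 6 genes against 9.48% of 6254 Apoe 0 cells.

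Interferon-induced transcripts were also set beside the 6 genes. In the plasma-negative library the 152 cells with at least 3 interferon-list UMIs after thinning and the 6692 with 0 had about the same Apoe level, 167 and 159 CPM. Slc2a5 was at 240 CPM (201 to 283) in the former and 310 CPM (303 to 317) in the latter, without overlap. Sparc was at 2254 CPM (2133 to 2380) and 2458 CPM (2439 to 2477), also without overlap, and Siglech at 1719 CPM (1614 to 1830) and 1858 CPM (1841 to 1875). Tmem119, Selplg and Olfml3 had overlapping intervals, at 1217 and 1281, 2412 and 2507, and 1422 and 1446 CPM. The 559 plasma-positive cells with at least 3 such UMIs held 5873 CPM of Apoe against 591 CPM in the 6559 with 0, so Apoe and interferon moved together there. Slc2a5 was at 229 and 332 CPM, Selplg at 1895 and 2419 CPM and Tmem119 at 1026 and 1216 CPM, while Olfml3 was at 1524 and 1518 CPM.

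**Figure D5:**
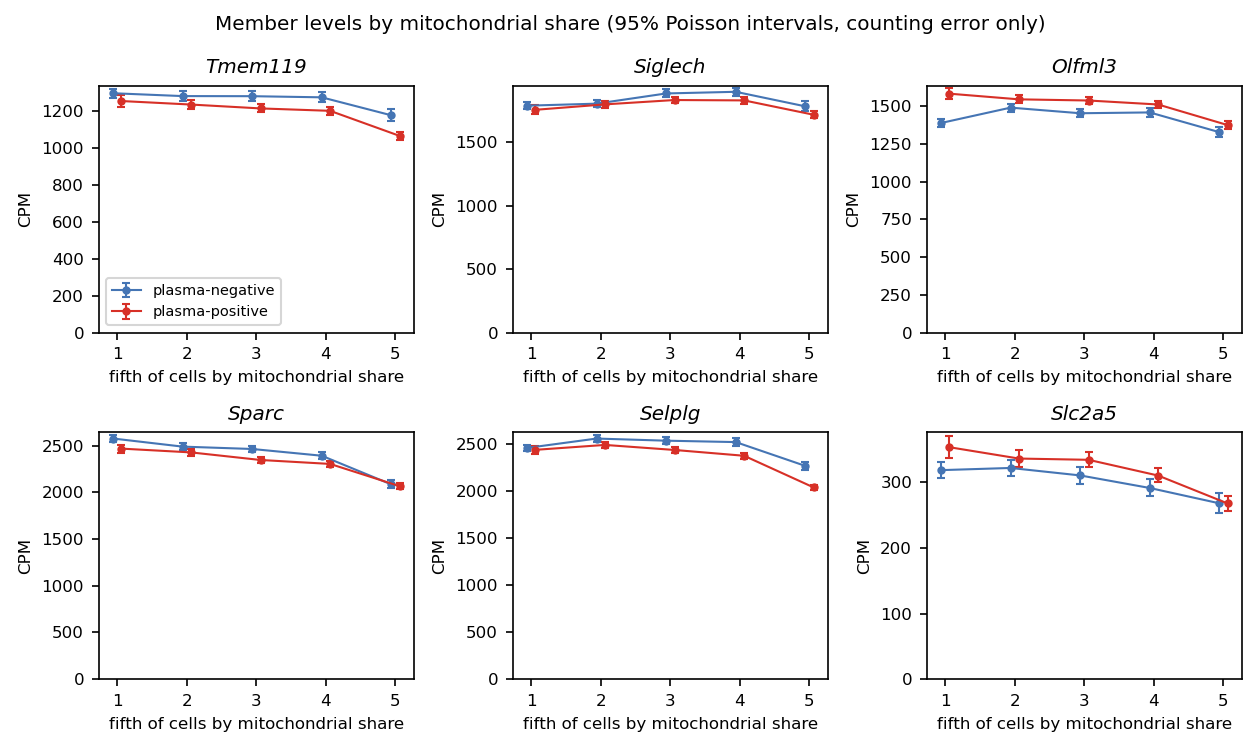
CPM of each gene (y axis, from 0) in 5 groups of cells by share of mitochondrial UMIs (x axis, 1 lowest to 5 highest, with edges at 0.695%, 1.03%, 1.36% and 1.88%), with 95% Poisson intervals, for the plasma-negative (blue) and plasma-positive (red) library. Sparc is at 2577 and 2469 CPM in group 1 and at 2085 and 2066 CPM in group 5.

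RNA quality moved with the levels as well. Sparc, which hardly differed between Apoe classes, was at 2577 and 2469 CPM in the cells with a mitochondrial share under 0.695% and at 2085 and 2066 CPM in those over 1.88%, in the plasma-negative and plasma-positive library. Tmem119 went from 1299 and 1257 to 1179 and 1067 CPM, Slc2a5 from 319 and 354 to 268 and 268 CPM, and Siglech from 1789 and 1756 to 1783 and 1717 CPM. The library ratio of Olfml3 was above 1 in all 5 groups by mitochondrial share, and that of Slc2a5 in the 4 lower ones. Mitochondrial share and depth move together in part, and their part in the levels was not tested.

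Other genes tied to the same functions were taken from lists. Of 40 further homeostatic microglia genes, 8 were lower and 3 higher by 1.2-fold or more in Apoe 5 or more cells of the plasma-negative library, and 17 lower and 2 higher in the plasma-positive library, beside the 16% and 22.1% of genes given above. Their medians were -0.15 and -0.17. The purine receptor gene P2ry13 had the lowest ratio in the plasma-negative library, -0.45, and P2ry12, which lets microglia sense ATP released by damaged cells, in the plasma-positive library, -0.60 (-0.63 to -0.57) against -0.16 (-0.21 to -0.12) in the plasma-negative library. Slc2a5 thus had a lower ratio than any of these 40 in both libraries. Lag3, an inhibitory receptor, had the highest, 0.95 and 0.79, and Cst3, the most abundant, was at 0.23 and -0.10. Of 14 disease-associated microglia genes at 50 CPM or more, Apoe left out, 10 were higher by 1.2-fold in each library, where 6.35% and 7.21% of all genes were. In each library 2 of the 14 reached 50 CPM only in the Apoe 5 or more cells, so that the minimum itself made them differ. They include Lgals3, which encodes galectin-3, at 53.2 against 1.72 CPM in the plasma-negative library, and Axl, a receptor kinase, at 57.1 against 4.68 CPM in the plasma-positive library. The cathepsin gene Ctsl was lowest at 0.17 in the former and Cd9 at 0.02 in the latter, and Ctsd, the most abundant, was at 0.19 and 0.20. Interferon-list genes at 50 CPM or more were 2 among plasma-negative cells, with Bst2 at 0.24, and 10 among plasma-positive cells. Of those 10, 8 reached 50 CPM only in the Apoe 5 or more cells, Ifi27l2a among them (361 against 45.0 CPM), and their direction is fixed by that minimum. Of 7 dissociation-list genes, 5 and 3 were lower by 1.2-fold, with Zfp36 lowest at -0.52 and Junb highest at -0.01 in the plasma-negative library, and Jun lowest at -0.47 and Zfp36 highest at 0.06 in the plasma-positive library. Between the libraries none of the 40 homeostatic genes passed 1.2-fold, where only 0.678% of all genes were higher and 0.65% lower by that much. Cx3cr1, the fractalkine receptor, was lowest at -0.19.

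For Siglech, the adaptor gene Tyrobp went the other way in the Apoe comparison, at 0.34 (0.30 to 0.38) and 0.23 (0.21 to 0.25), from 2603 to 3292 CPM and from 2907 to 3409 CPM. Cd33, another lectin of that family, was at -0.20 and -0.29, and Siglece at -0.27 and -0.27. For Selplg, 4 of 11 genes that modify PSGL-1 or bind it reached 50 CPM, all lower in Apoe 5 or more cells of both libraries. Most of all genes tested were lower too, with medians of -0.08 and -0.14 and upper quartiles of 0.05 and -0.01. Among the 4, St3gal6, a sialyltransferase, was lowest at -0.35 (-0.48 to -0.21) and -0.39 (-0.47 to -0.31). Tpst2, which sulfates tyrosines, was at -0.29 and -0.28. Gcnt1 was highest of the 4 in the plasma-negative library at -0.10, and B4galt1 in the plasma-positive library at -0.16. The selectin gene Selp had 0 UMIs. For Slc2a5, the other hexose carriers were far less frequent in UMIs, Slc2a8 with 28.2 and 26.7 CPM in the plasma-negative and plasma-positive library, Slc2a1 with 21.5 and 19.6 CPM and Slc2a3 with 2.98 and 2.79 CPM. Hk2, a hexokinase and the most abundant of that list, was at -0.10 and -0.07 between Apoe classes. The fructose kinase gene Khk was at 60.8 and 61.4 CPM, and its Apoe ratios of 0.23 (-0.07 to 0.51) and -0.22 (-0.40 to -0.04) differed in sign. None of the 7 relatives of Sparc and none of the 7 of Olfml3 reached 50 CPM. Olfml2b had the highest level among those, 22.6 and 23.1 CPM.

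Across single cells the correlations among the 6 genes were low in size. They were above those with most other genes at 50 CPM or more, a set not matched to the 6 in level. Pearson's r of log(1 + UMIs) was computed within each library over cells thinned to 2000 UMIs (8249 and 9109 cells), with no test. The highest r among the 15 pairs of the 6 genes was that of the neighbours Tmem119 and Selplg, 0.13 and 0.15 in the plasma-negative and plasma-positive library. The r of a pair was above that of the first gene with 88.0% to 99.97% of the genes compared, and the median r over all genes was at most 0.01. Selplg was also the gene most like Tmem119 among the 3539 compared, by the lower of both values, and Cx3cr1 and P2ry12 came next. For Selplg r was 0.16 and 0.25 with P2ry12. The 3 genes most alike were for Siglech Cx3cr1 (0.17 and 0.22), P2ry12 and Qk, and for Sparc P2ry12 (0.16 and 0.14), Cx3cr1 and Cst3. For Slc2a5 they were P2ry12 (0.11 and 0.13), Selplg and Gpr34. For Olfml3 r was 0.07 and 0.09 with Selplg, and 0.07 and 0.09 with Fcrls. These values are low, and the cells share a library and a depth. Counting noise lowers r for genes with few UMIs, so these ranks cannot separate likeness from level. The part of level in them was not tested. The variance of Tmem119 over its mean was 1.22 and 1.25, below the median of the 100 genes nearest in level (1.32 and 1.34), and that of Siglech was above it, at 1.60 and 1.59 against 1.37 and 1.43.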

How the data were processed

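Each of 2 sorts of microglia gave 1 droplet library (10x Genomics 3' chemistry, version 3.1, per the labels' protocols). The authors deposited matrices of whole-number UMI counts, not normalized. Cell Ranger 6.1.2 is named per the file headers and Cell Ranger 3.0.1 per the submitters' processing notes. The genome build, annotation and use of strand were not given in the sources used here. Cell barcodes were not used here, so barcodes shared between the libraries were not counted.

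A cell needed 500 UMIs and 300 genes or more, with no more than 10% of UMIs mitochondrial, which left out 18 plasma-negative and 28 plasma-positive cells. Doublets were not removed, because the Scrublet caller in scanpy 1.11.5 marked 0 cells in both libraries and had not worked. Removing the highest scores at 0.8% per 1000 cells (778 and 859 cells) was an alternative. Counts were summed over cells, divided by their total and given as CPM. Ratios have exact conditional binomial, levels exact Poisson and shares exact binomial (Clopper-Pearson) intervals at 95%, all for counting error only. Genes at 50 CPM or more in either group compared served as background, and called means past 1.2-fold or 1.5-fold. Cells of 1 library do not replicate a group, so nothing was tested. The calculations were checked on simulated data. Totals per library ranged from 34534518 to 41984977 UMIs. GENCODE M21 held 30934 of the 31053 gene identifiers. Python 3.11.15, numpy 2.4.6, scipy 1.17.1 and pandas 2.3.3 were used.

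The genes named are the 6, the highest, lowest and most abundant gene of each list at 50 CPM or more, and the 3 genes most like each of the 6, apart from a few that are not reported here. Genes of a list named below 50 CPM, and Cx3cr1, P2ry12, P2ry13, Cd33 and Tpst2 where another gene of the list was the lowest, were chosen after their values were seen. The 6 genes and the lists were chosen with earlier results of these data known.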

Additional observations from a re-analysis of the deposited data

How the results depend on the processing

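No paired analysis was possible because the design has a single library on either side and nothing was tested, and for the same reason no replicate could be left out. The settings were planned, except the weighting by mitochondrial share and the removal of interferon-rich cells, which were chosen after seeing the data. Of the recomputed summary values 123 stayed within the counting interval or, for counts, within 1.5 times, 22 moved further and 2 reversed. Of the recomputed ratios of single genes 238 stayed, 72 moved further and 2 reversed. The library median over the 6 genes, -0.05, was -0.0328 without mitochondrial and ribosomal genes in the total, -0.0257 when centred on the median ratio and -0.0346 as a mean over cells. The library median in Apoe 5 or more cells, -0.08, was -0.23 after thinning, beside -0.06 and -0.07 over all genes. The Apoe median in the plasma-negative library, -0.25, was -0.16 when centred and -0.34 with at least 10 Apoe UMIs. That in the plasma-positive library, -0.34, was -0.38 with likely doublets removed, -0.27 without mitochondrial and ribosomal genes, -0.19 when centred, -0.39 as a mean over cells, -0.27 with at least 3 and -0.40 with at least 10 Apoe UMIs, and -0.28 without interferon-rich cells. The count of genes lower by 1.2-fold in the plasma-negative library, 2, was 1 without mitochondrial and ribosomal genes, 1 when centred, 1 with at least 3 Apoe UMIs, 4 with at least 10 and 0 at 1.5-fold. In the plasma-positive library the count, 3, was 1 at 1.5-fold (Slc2a5). When centred, Olfml3 reversed to 0.0421 and Sparc to 0.0126 in the plasma-positive library. The difference between libraries in genes detected per cell, -0.04, was -0.00551 at 2000 UMIs and reversed to 0.14 without thinning. That between Apoe classes, -0.29 in the plasma-negative library, reversed to 0.17 without thinning, and that in the plasma-positive library, -0.56, was -0.47 at 2000 UMIs and -0.10 without thinning. Without thinning, Apoe 5 or more cells are deeper than Apoe 0 cells, and thinning also left out the shallower cells. The cause of these moves was not tested.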

Other observations

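The 6 genes also varied with the depth of the cells. In cells with fewer than 2395 UMIs, the lowest of 5 depth groups, they summed to 8521 CPM in the plasma-negative and 8363 CPM in the plasma-positive library. In the other 4 groups they summed to between 9825 and 9981 CPM, and between 9494 and 9644 CPM. Sparc was at 2077 and 1892 CPM in the shallowest group against 2537 and 2375 CPM in the next, and Olfml3 at 1186 and 1199 CPM against 1418 and 1551 CPM. Tmem119 was at 1238 and 1195 CPM against 1324 and 1252 CPM, a smaller step. The shallowest group had mitochondrial shares of 1.71% and 2.12% of UMIs, against 1.02% and 1.26% in the next group.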
